A study of Homo sapiens with 13 samples.

Results

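The E proteins and their ID inhibitors are the 7 genes TCF3, TCF4, TCF12, ID1, ID2, ID3 and ID4, found by symbol among the 56831 genes of the RNA-seq tables of H82 and H146 cells. The set holds 3 E protein genes and 4 ID genes, and all 7 are listed once in each table. H82 and H146 are established small cell lung cancer (SCLC) lines. In the study's scheme H82 is of the NEUROD1 subtype (SCLC-N) and H146 belongs to the SCLC-A subtype, and both carry the label WT. The groups were untreated H82 (3 libraries), H82 under FHD-286 (3 libraries), untreated H146 (3 libraries) and H146 under FHD-286 (4 libraries). FHD-286 inhibits the ATPases SMARCA4 and SMARCA2 of the SWI/SNF chromatin remodelers, and it was given at 100 nM over 14 days with renewal between. All groups grew in RPMI1640 with fetal bovine serum. The untreated cells carry the label "none" for treatment, so whether they received the solvent alone is not given. Each line stands for itself as a model, and the RNA of a whole culture was measured, so fewer cells with a transcript and less of it per cell cannot be told apart. Nothing in the labels ties the libraries of a group to separate cultures, and the *p* values measure the spread between these libraries only.

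E proteins are broadly expressed basic helix-loop-helix (bHLH) factors that pair with tissue-restricted bHLH partners, such as the proneural factors of neuroendocrine (NE) cells, and bind the E-box, a short DNA motif, as dimers. ID proteins have the helix-loop-helix but no basic region, so they take up E proteins in dimers that do not bind DNA. Their genes are known as direct targets of bone morphogenetic protein (BMP) signaling, in which ligands act through paired receptors and SMAD proteins and are held in check by secreted antagonists and inhibitory SMADs.

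The values are TPM, in which read numbers are corrected for transcript length and every library is brought to 1 common total. The number of reads is not kept in them. Between 15554 and 16633 genes reached 1 TPM in treated H82 and between 21227 and 21772 in untreated H82, against 17476 to 19309 in H146. The median log2 fold change over all genes tested was -0.56 in H82 and 0.25 in H146. Scaling the libraries by the median of ratios moved these medians to -0.14 and -0.02. Among the treated H82 libraries, n1 lay at a root mean square log2 distance of 0.79 from n2 and 0.73 from n3, with 0.50 between n2 and n3. Treated H146 n2 was similarly far from n4 (0.79). Across 54 genes that reached at least 100 TPM in each untreated H146 library and stayed below 1 TPM in each untreated H82 library, a rule chosen after the values were seen, the summed TPM was 8.43 to 10.1 in untreated H82. In treated H82 the same sum was 158 in n1, 981 in n2 and 96.2 in n3, and in H146 it ranged from 8278 to 18388. Treated H82 n2 therefore stands apart by genes that are high in H146, and the H82 values of ID1 to ID4 are given with and without it. NE markers were present in both lines. Sums over 10 markers were 1559 to 1727 TPM in untreated H82 and 1471 to 1817 TPM in treated H82. In H146 they were 3807 to 4303 TPM untreated and 2963 to 3242 TPM treated. The sums do not show the single markers. In H82, limma called 5 of 10 lower and 2 higher, where 45.5% and 13.1% of all genes were. Their median log2 fold change was -1.25, beside -0.56 for all genes. In H146, 4 of 9 tested were lower and 1 higher, where 15.5% and 32.5% of all genes were. The median there was -0.41, beside 0.25. Of the NE markers, NEUROD1 averaged 230 TPM (229.7 ± 5.51, SD, n = 3) in untreated H82 and 0.393 TPM in untreated H146.

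Among the E proteins, treatment moved all 3 genes in H146, with TCF3 and TCF4 higher and TCF12 lower, while none of the 3 passed the test in H82. TCF3 (ENSG00000071564), which encodes E12 and E47, lies on the minus strand of chromosome 19 from 1609291 to 1652615 (hg38, GENCODE release 44). In H146 its level was 60.2, 72.5 and 60.03 TPM in untreated libraries n1 to n3 and 116, 102, 142 and 138 TPM in treated libraries n1 to n4. Every treated library was above every untreated one. TCF3 rose 1.93-fold in mean TPM, a log2 fold change of 0.93 ± 0.15 (SE) of TPM + 1 (adjusted *p* = 0.00149). In H82 it was 193, 152 and 188 TPM without the drug and 95.9, 155 and 169 TPM with it, and the groups overlapped. The log2 fold change was -0.37 ± 0.24 (adjusted *p* = 0.217), 0.18 above the median gene of that line. By quantile normalization the same difference was -0.59 (adjusted *p* = 0.0149), whereas scaling by the median of ratios turned it to 0.12 (adjusted *p* = 0.669), so no direction is given for TCF3 in H82.

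TCF4 (ENSG00000196628), which encodes E2-2 and should not be confused with the WNT effector TCF7L2, spans 442603 bases of chromosome 18 from 55222185 to 55664787 on the minus strand. It was the least abundant E protein transcript of H82. In H146 the untreated libraries gave 28.6, 30.6 and 21.5 TPM, and the treated libraries gave 47.5, 48.3, 53.1 and 57.0 TPM. The groups did not overlap, and TCF4 rose 1.91-fold (log2 fold change 0.92 ± 0.15, adjusted *p* = 0.00159). In H82 it stood at 6.31, 7.48 and 6.27 TPM untreated and at 2.98, 8.27 and 6.02 TPM treated. The log2 fold change in H82 was -0.27 ± 0.32 (adjusted *p* = 0.503), and its sign turned under the median of ratios (0.15) and under quantile normalization (0.53).

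TCF12 (ENSG00000140262), which encodes HEB, lies on the plus strand of chromosome 15 from 56918623 to 57299281. In H146 it was 142, 120 and 96.8 TPM without the drug (119.4 ± 22.4, SD, n = 3) and 49.5, 67.6, 55.7 and 59.1 TPM with it. All treated libraries were below all untreated ones, and TCF12 fell to a 0.486-fold level (log2 fold change -1.02 ± 0.16, adjusted *p* = 0.00141). In H82 the untreated values were 71.6, 81.5 and 74.6 TPM and the treated values 48.7, 78.0 and 87.6 TPM, which overlap. The log2 fold change there was -0.13 ± 0.23 (adjusted *p* = 0.656), and its sign turned to 0.36 under the median of ratios. All 3 E protein genes were lowest in treated library n1 of H82. The summed E protein level of that library was 148 TPM, compared with 241 TPM in n2 and 262 TPM in n3. Untreated H82 ranged from 241 to 271 TPM.

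**Figure D1:**
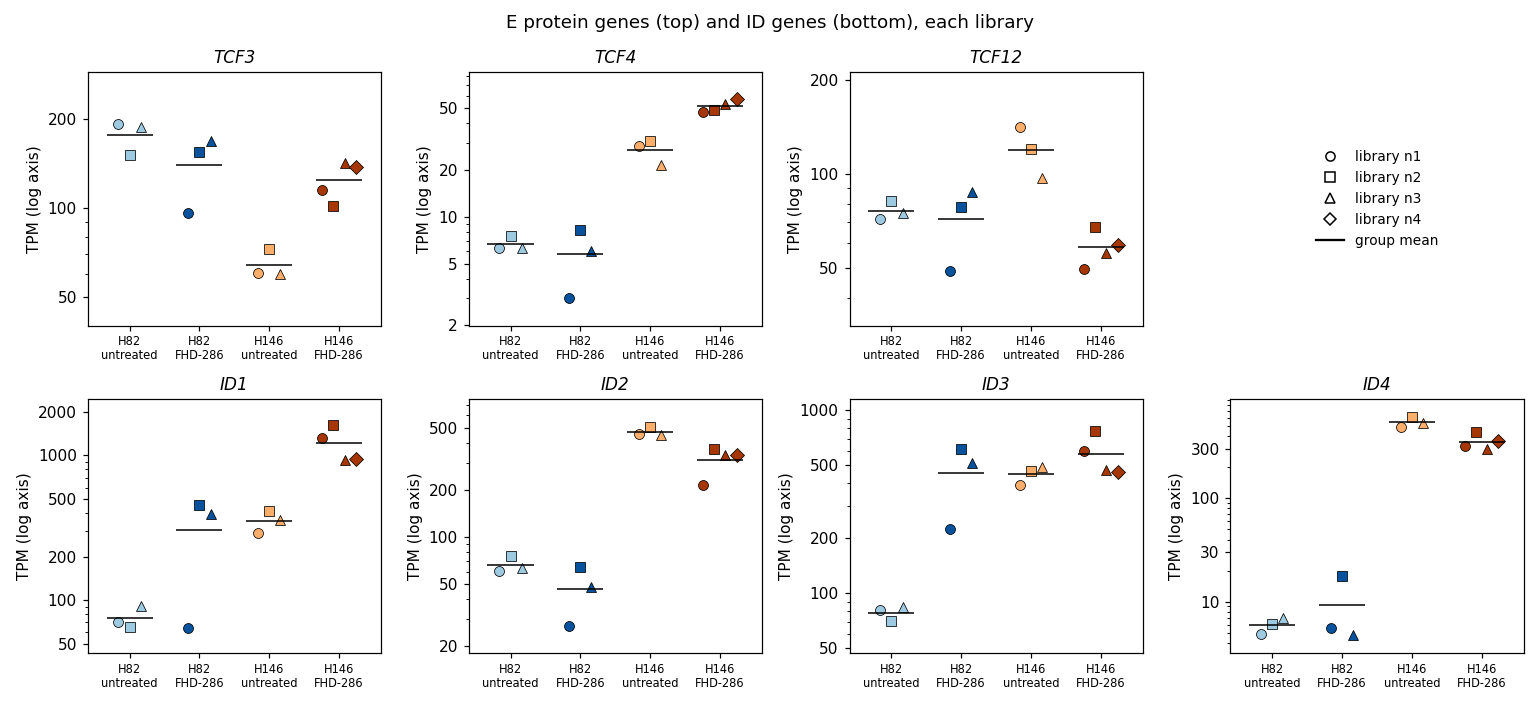
TPM on a log axis of TCF3, TCF4, TCF12, ID1, ID2, ID3 and ID4 in each of the 13 libraries, by cell line and treatment, with marker shapes for the library number and a line for the group mean. In H146 the treated points of TCF3 and TCF4 lie above and those of TCF12 below the untreated points, and in H82 ID3 is the gene whose treated points, from 224 to 613 TPM, all lie above the untreated ones.

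ID1 and ID3 were the 2 members with the largest positive fold changes in H82, and their regions before the transcription start are shown to compare them. The sequences are from RefSeq (GRCh38.p14), where all 7 genes matched, and each run gives the 250 bases before the start, 5′ to 3′ along the gene. Capitals mark TATAA on the gene's strand, the core of a TATA box, and CAGAC on either strand, a short box bound by SMAD proteins. ID1 is at chr20:31605039-31605288 on the plus strand and ID3 at chr1:23559502-23559751 on the minus strand.
ID1: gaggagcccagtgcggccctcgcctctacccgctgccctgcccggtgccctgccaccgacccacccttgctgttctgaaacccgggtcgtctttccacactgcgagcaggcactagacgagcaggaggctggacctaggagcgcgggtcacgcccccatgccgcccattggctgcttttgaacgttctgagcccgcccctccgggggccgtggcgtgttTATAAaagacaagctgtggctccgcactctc
ID3: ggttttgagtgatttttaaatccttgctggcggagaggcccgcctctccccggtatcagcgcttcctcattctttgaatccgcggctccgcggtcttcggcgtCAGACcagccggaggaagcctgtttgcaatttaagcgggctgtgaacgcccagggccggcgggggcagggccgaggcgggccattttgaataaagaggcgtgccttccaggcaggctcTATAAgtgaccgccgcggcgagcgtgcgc
Both runs hold a TATAA, which starts 31 bases before the start of ID1 and 29 bases before that of ID3. Among 35116 RefSeq promoter windows, each running from 250 bases before the start to 50 after it, 14.8% hold TATAA. ID3 has 1 CAGAC, 147 bases before the start, and ID1 has none in its window, where 45.3% of all windows hold CAGAC on either strand. GGCGCC, the GC-rich site of the BMP-responsive SMADs, was in none of the 4 ID windows and is in 19.2% of all. These are matches of letters, with no measurement of binding behind them.

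ID2 and ID4, the other 2 inhibitors, have an E-box (CANNTG, the same on both strands) in their windows, and ID1 and ID3 have none there. E-boxes are in 68.7% of all windows. The start is that of RefSeq, which for ID2 lies inside the gene as GENCODE annotates it. The E-box is in capitals in the stretches below, at chr2:8681839-8681868 for ID2 and chr6:19837337-19837366 for ID4, both on the plus strand.
ID2: tatttaccacccCAGCTGggctcgcgcccc
ID4: gctctataaataCAGCTGcgcggcgggccg
Both have the letters CAGCTG, which start 205 bases before the start of ID2 and 21 bases before that of ID4. ID4 also holds TATAA, 29 bases before its start, left in lower case here, and a CAGAC 205 bases before it. Of the E protein genes, TCF3 has 1 window and no E-box in it, TCF12 has an E-box in 2 of 5 windows and TCF4 in 7 of 10.

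The ID genes split under FHD-286. ID3 rose in H82, ID1 rose in H146, and ID2 and ID4 fell in H146. ID1 (ENSG00000125968) lies on the plus strand of chromosome 20 from 31605283 to 31606515. In H146 it was 289, 412 and 358 TPM untreated and 1330.5, 1635, 934 and 949 TPM treated, without overlap. It rose 3.44-fold (log2 fold change 1.75 ± 0.22, adjusted *p* = 0.000527), to a mean of 1212 ± 336 TPM (SD, n = 4), the highest mean of any member in any group. In H82 the untreated libraries gave 70.3, 65.2 and 91.1 TPM, and the treated libraries gave 64.5 TPM in n1, 453 TPM in n2 and 396 TPM in n3. Libraries n2 and n3 were 5.99-fold and 5.24-fold above the untreated mean, whereas n1 was below each untreated library. The log2 fold change of 1.59 ± 0.70 did not pass the test (adjusted *p* = 0.0893). Without treated n1 it was 2.49 (adjusted *p* = 0.00014), without n2 it was 1.09 (adjusted *p* = 0.237), and by the median of ratios it was 2.07 (adjusted *p* = 0.0359), so 1 library and the scaling decide the call.

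ID3 (ENSG00000117318) lies on the minus strand of chromosome 1 from 23557926 to 23559501. In H82 it was 80.7, 70.7 and 84.1 TPM without the drug and 224, 613 and 518 TPM with it. Every treated library was above every untreated one, with n1 at 2.86-fold, n2 at 7.80-fold and n3 at 6.61-fold the untreated mean. ID3 rose 5.76-fold (log2 fold change 2.39 ± 0.36, adjusted *p* = 0.00154), 2.95 above the median gene of the line. The rise passed the test without treated n2 (log2 fold change 2.11, adjusted *p* = 0.00484), without n1 (2.83, adjusted *p* = 6.71e-05) and without n3 (2.23, adjusted *p* = 0.0063). In H146 the untreated values were 391, 465 and 489 TPM and the treated values 603, 768, 471 and 462 TPM. Treated libraries n1 and n2 were above the untreated range and n3 and n4 were within it, and the log2 fold change of 0.34 ± 0.19 did not pass (adjusted *p* = 0.182).

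ID2 (ENSG00000115738) lies on the plus strand of chromosome 2 from 8678845 to 8684461. In H146 it was 459, 509 and 452 TPM untreated and 216, 365, 335 and 334 TPM treated, with no overlap. The fall was to 0.661-fold (log2 fold change -0.62 ± 0.18, adjusted *p* = 0.0228), and it did not pass the test when untreated n1 (adjusted *p* = 0.0616), n2 (adjusted *p* = 0.0814) or n3 (adjusted *p* = 0.0614) was left out. In H82 ID2 stood at 60.5, 75.7 and 63.8 TPM untreated and 27.1, 64.4 and 48.1 TPM treated. The log2 fold change of -0.59 ± 0.30 (adjusted *p* = 0.137) was close to the median gene of H82, 0.03 below it. Without treated n2 it was -0.86 (adjusted *p* = 0.0389).

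ID4 (ENSG00000172201) lies on the plus strand of chromosome 6 from 19837370 to 19842197. It separated the lines more than any other member. Untreated H146 gave 493, 608 and 537 TPM, and untreated H82 gave 4.83, 6.08 and 6.99 TPM. Under FHD-286, H146 fell to 319, 438, 297 and 362 TPM, below each untreated library (log2 fold change -0.63 ± 0.16, adjusted *p* = 0.0108, or 0.0507 without untreated n2). In H82 the treated values were 5.56 TPM in n1, 17.6 TPM in n2 and 4.79 TPM in n3. Only n2 was outside the untreated range on the upper side. Of the treated H82 libraries, n2 also had the highest sum over the 54 genes that are high in H146. The log2 fold change was 0.37 ± 0.45 (adjusted *p* = 0.507), it was 1.15 (adjusted *p* = 0.0442) by quantile normalization, and without n2 it turned to -0.17 (adjusted *p* = 0.581).

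In counts, limma called 1 of the 7 genes higher (ID3) in H82, where 13.1% of all 19770 genes tested were called higher. It called 0 of 7 lower at the adjusted threshold of 0.05, where 45.5% of all genes were lower. At an unadjusted *p* under 0.05 the count of members lower was also 0. Treated and untreated libraries of H82 did not overlap for 1 of 7 members, against 67.8% of all genes. With the median of ratios 6499 genes were lower and 4793 higher in H82, in place of 8996 and 2588, and 4917 were lower and 4165 higher in H146, in place of 3033 and 6356. In H146, 3 of 7 were higher (TCF3, TCF4 and ID1), against 32.5% of 19585 genes, and 3 were lower (TCF12, ID2 and ID4), against 15.5%. The groups of H146 did not overlap for 6 of 7 members, against 52.9% of all genes.

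**Figure D2:**
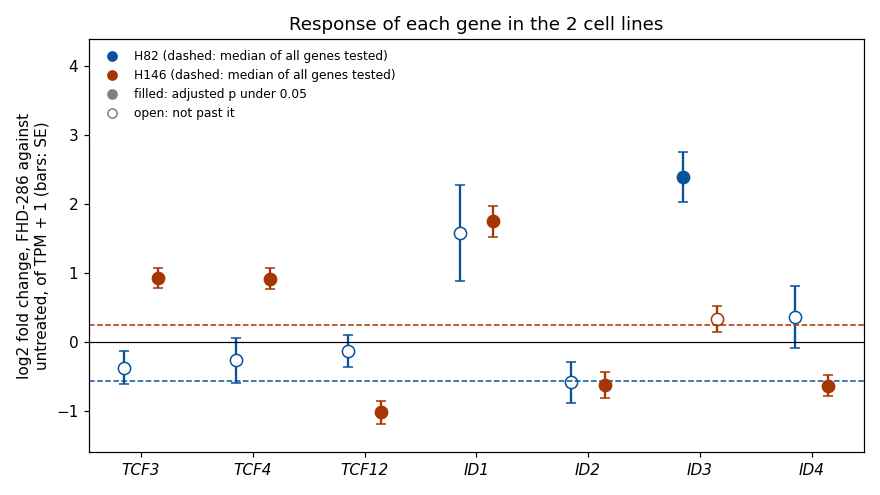
Log2 fold change of TPM + 1, FHD-286 against untreated, with its standard error for each of the 7 genes in H82 and H146, where filled points passed an adjusted p of 0.05, open points did not, and dashed lines are the median of all genes tested in each line. The TCF3 and TCF4 points of H146 lie above those of H82 and the TCF12 and ID3 points below. The TCF3, TCF4 and TCF12 points of H82 change sign with the median of ratios.

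The response differed between the lines for 4 of the 7 genes, where 60.2% of 23676 genes did so in a fit over all 13 libraries. The difference, H146 response minus H82 response on the log2 scale, was 1.31 ± 0.28 for TCF3 (adjusted *p* = 0.00171) and 1.19 ± 0.35 for TCF4 (adjusted *p* = 0.0102). It was -0.89 ± 0.29 for TCF12 (adjusted *p* = 0.0165) and -2.05 ± 0.43 for ID3 (adjusted *p* = 0.00133). The median gene had a difference as well. The difference for TCF3 and TCF4 was 0.57 and 0.45 above the median difference, while TCF12 and ID3 lay 1.63 and 2.79 below it. With the median of ratios the TCF3 difference was 0.50 (adjusted *p* = 0.0961) and the TCF4 difference 0.45 (adjusted *p* = 0.243), so these 2 calls depend on the scaling. For ID1 the difference was 0.16 ± 0.76 (adjusted *p* = 0.863), for ID2 it was -0.04 ± 0.37 (adjusted *p* = 0.937), and for ID4 it was -0.999 ± 0.472 (adjusted *p* = 0.0845). The ID4 difference passed without treated n1 (-1.22, adjusted *p* = 0.0455) or n3 (-1.31, adjusted *p* = 0.0256) of H82, and also by the median of ratios (-1.75, adjusted *p* = 0.00859), by quantile normalization (-1.77, adjusted *p* = 0.00418) and with library weights (-1.12, adjusted *p* = 0.0264).

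The untreated lines differed in all 7 genes, where 72.4% of all genes tested did. TCF3 was lower in H146 (log2 difference, H146 minus H82, of -1.45 ± 0.21, adjusted *p* = 3.85e-05), and the other 6 were higher. ID4 had the widest gap, 91.5-fold in mean TPM (log2 difference 6.30 ± 0.34, adjusted *p* = 7.61e-09). ID2 was 7.10-fold, ID3 5.71-fold, ID1 4.67-fold and TCF4 4.02-fold higher in H146. TCF12 was 1.57-fold higher (log2 difference 0.63 ± 0.21, adjusted *p* = 0.0156), which did not pass without untreated n1 of H82 (adjusted *p* = 0.0509) or of H146 (adjusted *p* = 0.0714). Under FHD-286, 4 of 7 genes differed, against 59.8% of all genes, and all 4 were higher in H146, namely TCF4 (8.94-fold), ID1 (3.98-fold), ID2 (6.72-fold) and ID4 (38.0-fold). TCF3, TCF12 and ID3 overlapped between the treated lines, with log2 differences of -0.14 ± 0.19 (adjusted *p* = 0.558), -0.26 ± 0.19 (adjusted *p* = 0.266) and 0.44 ± 0.29 (adjusted *p* = 0.215). Without treated n1 of H82, TCF3 (-0.39, adjusted *p* = 0.0467) and TCF12 (-0.51, adjusted *p* = 0.0139) were lower in treated H146.

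Since TPM are per length, the transcript levels of the family can be summed within a library. The summed ID level over the summed E protein level was 0.800, 0.904 and 0.916 in untreated H82 and 2.18, 4.76 and 3.69 in treated H82. Each treated library held more ID than E protein transcript and each untreated one held less. In H146 the ratio was 7.08, 8.95 and 10.3 untreated and 11.6, 14.7, 8.12 and 8.31 treated. Treated n1 and n2 of H146 were above the untreated range and n3 and n4 within it. No test was made of the ratio, since the members were chosen with results known, and a ratio of transcripts says nothing of protein.

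The sum of the 3 E protein genes was 260 TPM (259.96 ± 16.7, SD, n = 3) in untreated H82 and 217 ± 61.0 TPM in treated H82. In H146 it was 211 ± 28.1 TPM untreated and 234 ± 21.6 TPM treated (n = 4), so the means differed by less than the larger SD of the 2 groups and by more than the smaller one in each line. The make-up of the sum changed in H146. TCF12 held 56.5% ± 4.31 (SD, n = 3) of the E protein transcripts in untreated H146 and 25.0% ± 4.09 (SD, n = 4) in treated H146, while TCF3 went from 30.8% ± 4.07 to 53.0% ± 4.29 and TCF4 from 12.7% ± 0.887 to 22.0% ± 0.578. In H82, TCF3 held 68.0% ± 4.38 untreated and 64.5% ± 0.405 treated.

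The sum of the 4 ID genes was 227 ± 16.7 TPM in untreated H82 and 321, 1147 and 967 TPM in treated H82. In H146 it was 1820.3 ± 182 TPM untreated and 2455 ± 535 TPM treated. ID3 held 34.6% ± 2.44 of the ID transcripts in untreated H82 and 58.9% ± 9.38 in treated H82, and the ID2 share went from 29.6% ± 4.64 to 6.35% ± 1.85. In H146 the ID1 share went from 19.3% ± 1.48 to 48.9% ± 4.23, the ID4 share from 30.0% ± 0.643 to 14.6% ± 1.86 and the ID2 share from 26.1% ± 1.82 to 13.1% ± 3.68.

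**Figure D3:**
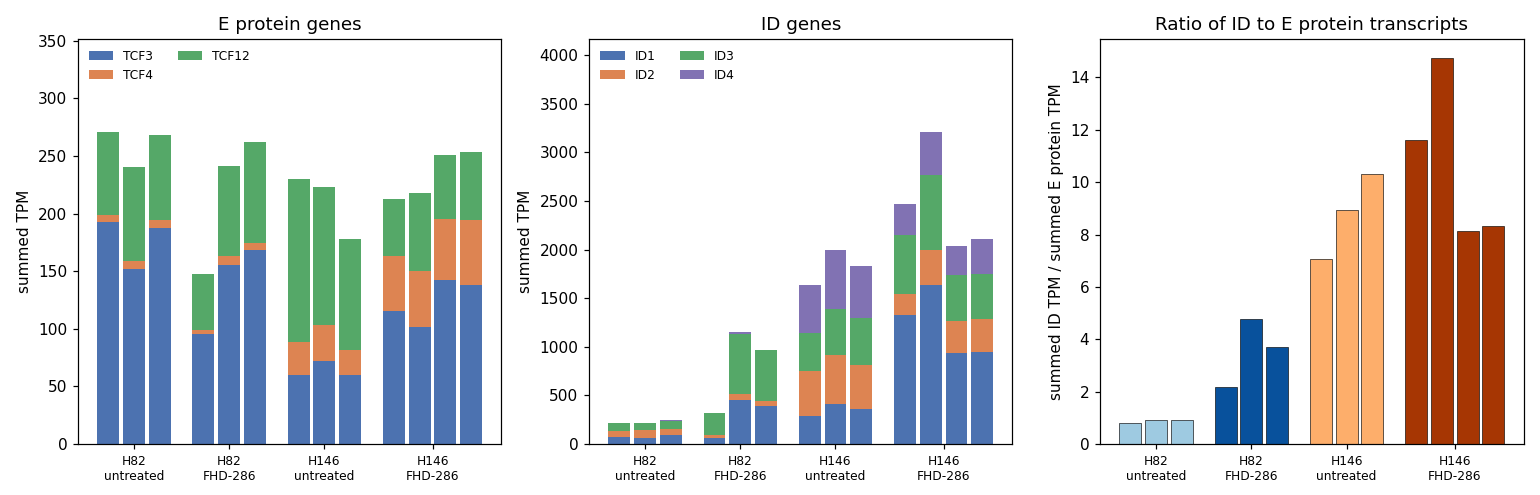
Summed TPM of the 3 E protein genes (left), of the 4 ID genes (middle) and the ratio of the sums (right), with 1 bar per library in the order n1 to n3 or n4. The E protein sum stays between 148 and 271 TPM in every library while its TCF12 part shrinks in treated H146, and the ratio goes from under 1 in untreated H82 to 2.18 to 4.76 in treated H82.

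The bHLH partners that pair with E proteins were mostly silent, with a mean of at least 1 TPM for 14 of 44 in each H82 group and for 11 and 12 in untreated and treated H146. The highest ones differed between the lines, while lower ones such as BHLHA15, TAL2 and SCX reached 1 TPM in both untreated lines. In untreated H82 NEUROD1, the factor that names SCLC-N, was the highest at 229.7 TPM, before NEUROG1 at 160 TPM, another proneural factor. In untreated H146 TWIST1, known from mesenchymal cells, led the list at 65.3 TPM, before BHLHE22, a neuronal bHLH repressor, at 39.4 TPM. Of 17 partners tested in H82, 6 fell, 4 rose and 7 did not pass, where 45.5% of all genes fell and 13.1% rose. NEUROD1 fell to 84 TPM (83.6 ± 32.4, SD, n = 3, log2 fold change -1.53 ± 0.30, adjusted *p* = 0.00418). NHLH1 (-3.12 ± 0.18), ATOH7 (-2.52 ± 0.17) and MYOD1 (-2.33 ± 0.19) fell most, each with an adjusted *p* of at most 0.000202. ATOH8 (2.88 ± 0.64, adjusted *p* = 0.00726), TWIST1 (2.16 ± 0.38) and MESP1 (2.10 ± 0.20) rose. NEUROG1 gave 45.8, 188 and 193 TPM in treated H82 n1 to n3, against 139 to 181 TPM untreated, and did not pass (adjusted *p* = 0.526).

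Of 12 partners tested in H146, 3 fell, 4 rose and 5 did not pass, where 15.5% of all genes fell and 32.5% rose. BHLHE22 rose from a mean of 39.4 to 413 TPM (log2 fold change 3.38 ± 0.26, adjusted *p* = 4.41e-05), the highest partner level in any group, and it reached 291 to 505 TPM in each treated library. BHLHA15 (-1.89 ± 0.19), HAND1 (-1.15 ± 0.17) and TCF15 (-0.96 ± 0.18) fell. ATOH7, ASCL5 and MESP2 rose by 0.97, 0.85 and 0.64 on the log2 scale, which did not pass under the median of ratios or quantile normalization. With the median of ratios the split of the partners was 5 lower and 1 higher in H146, and 6 lower and 6 higher in H82. With quantile normalization it was 5 lower and 7 higher in H82. The median log2 fold change of the partners tested was -0.31 in H82 and -0.07 in H146, beside -0.56 and 0.25 for all genes.

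Of the genes of 8 E protein cofactors tested in H82, 6 fell and 1 rose, where 45.5% of all genes fell and 13.1% rose. Of 9 tested in H146, 4 rose and 3 fell, where 32.5% of all genes rose and 15.5% fell. EP300 and CREBBP, the histone acetyltransferases that E proteins recruit, fell in H82 (log2 fold changes -1.67 ± 0.29 and -1.66 ± 0.31, adjusted *p* = 0.00262 and 0.00364) and rose in H146 (1.98 ± 0.32 and 1.39 ± 0.22, adjusted *p* = 0.00155 and 0.00153). LMO2, a LIM-only adaptor of bHLH complexes, fell from 8.84 to 2.69 TPM in H82 and from 40.7 to 3.18 TPM in H146 (-3.35 ± 0.21, adjusted *p* = 1.63e-05). LMO1, its relative, fell in both lines as well (-1.82 ± 0.28 and -1.51 ± 0.17). LMO4 rose in H82 (0.52 ± 0.17, adjusted *p* = 0.0309) and fell in H146 (-1.62 ± 0.12). LDB1, which bridges LIM-only proteins, rose in H146 from 78.8 to 180 TPM (179.9, log2 fold change 1.18 ± 0.13). The corepressor gene RUNX1T1 fell in H82 (-1.34 ± 0.17, but -0.44 with an adjusted *p* of 0.0796 by quantile normalization) and rose in H146 (0.94 ± 0.23). The median over the list was -1.38 in H82 and 0.88 in H146, beside -0.56 and 0.25 for all genes. The H146 response minus the H82 response was 3.64 ± 0.47 for EP300 (adjusted *p* = 4.33e-05), 3.06 ± 0.40 for CREBBP (adjusted *p* = 4.81e-05), 2.28 ± 0.29 for RUNX1T1 and -2.14 ± 0.19 for LMO4, and each of these passed under the median of ratios too.

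The BMP ligands were sparse in H82, where 2 of 14 could be tested. BMP8A and BMP8B, near-identical paralogs whose reads may be split between them, fell in H82 by 1.55 and 1.21 on the log2 scale as TPM, which did not pass by quantile normalization (adjusted *p* = 0.0673 and 0.127). The other ligands were below the filter in H82 and were not tested. Of these, BMP6 was 0.505 to 9.58 TPM treated and at most 0.0736 TPM untreated. BMP7 (0.684 to 7.07 TPM) and BMP2 (0.142 to 3.28 TPM) were at 0 without the drug. The remaining ligands stayed below 1 TPM in each H82 library, some higher and some lower on average with the drug. In H146, 6 ligands could be tested, of which 2 rose, 2 fell and 2 did not pass, where 32.5% of all genes rose and 15.5% fell. BMP2 was 40.2, 57.3 and 39.2 TPM untreated and 127, 82.7, 108 and 106 TPM treated (log2 fold change 1.202 ± 0.185, adjusted *p* = 0.00126). BMP3, which opposes other BMPs, rose from 2.84 to 32.0 TPM (3.07 ± 0.26, adjusted *p* = 7.18e-05). BMP6 fell from 12.4 to 6.51 TPM (-0.82 ± 0.23, adjusted *p* = 0.0189), and BMP8B fell (-0.96 ± 0.20).

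Of the 7 BMP receptor and coreceptor genes tested in H82, 3 fell and 4 did not pass, where 45.5% of all genes fell. Those that fell were the type II receptor genes ACVR2B (-2.27 ± 0.19, adjusted *p* = 0.0002) and BMPR2 (-1.95 ± 0.22) and the coreceptor ENG (-1.61 ± 0.23). With the median of ratios or quantile normalization 2 more were called, both higher. In H146, 5 of 9 rose and 1 fell, where 32.5% and 15.5% of all genes did. ACVR2B (1.24 ± 0.17), BMPR2 (0.75 ± 0.16) and the type I receptor BMPR1A (0.98 ± 0.16) were among those that rose, and RGMA, a coreceptor, had the largest rise (1.63 ± 0.19, adjusted *p* = 0.000308). The H146 response minus the H82 response was 3.51 ± 0.24 for ACVR2B (adjusted *p* = 5.08e-07) and 2.70 ± 0.27 for BMPR2 (adjusted *p* = 6.11e-06). HFE2, the hemojuvelin gene, was low and fell (1.41 to 0.437 TPM).

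Among the 4 SMAD genes that carry the BMP signal, SMAD1 rose in H146 from 3.42 to 10.9 TPM (log2 fold change 1.42 ± 0.16, adjusted *p* = 0.000262), and SMAD4, the common partner, fell from 55.8 to 35.7 TPM (-0.63 ± 0.12, adjusted *p* = 0.00391). SMAD5 rose by 0.51 ± 0.18, which did not pass under the median of ratios (adjusted *p* = 0.268). In H82, SMAD5 (-0.71 ± 0.20) and SMAD4 (-0.58 ± 0.19) fell as TPM and did not pass under the median of ratios (adjusted *p* = 0.292 and 0.571). SMAD9 was the most abundant of the 4 in H82, with 158 TPM untreated and 119 TPM treated, and did not pass (adjusted *p* = 0.113), whereas by quantile normalization it was lower (-0.63, adjusted *p* = 0.00611) and SMAD4 was not (adjusted *p* = 0.524).

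Of the BMP inhibitors and feedback genes, 9 of 13 tested rose and 2 fell in H146, where 32.5% of all genes rose and 15.5% fell. The median log2 fold change was 0.91, beside 0.25 for all genes. With the median of ratios or quantile normalization 8 rose, and NBL1 did not pass (adjusted *p* = 0.279 and 0.185). FST, which encodes follistatin and sequesters activins and BMPs, was 3.93, 3.97 and 3.29 TPM untreated and 36.8, 34.0, 62.7 and 67.2 TPM treated (3.37 ± 0.26, adjusted *p* = 4.46e-05). BMPER, a secreted BMP-binding protein, rose from 5.59 to 17.4 TPM (1.46 ± 0.19, adjusted *p* = 0.000616). The inhibitory SMAD genes rose as well, SMAD7 from 25.0 to 47.4 TPM (0.91 ± 0.15, adjusted *p* = 0.00162) and SMAD6 from 0.106 to 1.82 TPM (1.34 ± 0.19, adjusted *p* = 0.0009). CHRD, which encodes the antagonist chordin, fell from 19.6 to 3.34 TPM (-2.28 ± 0.21, adjusted *p* = 0.00011), and TWSG1, its cofactor, fell (-0.30 ± 0.11, adjusted *p* = 0.0454).

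In H82, 3 of the 11 inhibitors tested rose, 2 fell and 6 did not pass, where 13.1% of all genes rose and 45.5% fell. Their median log2 fold change was -0.41, beside -0.56 for all genes. NOG, which encodes the antagonist noggin, was 9.93, 10.7 and 14.1 TPM untreated and 59.5, 228 and 211 TPM treated, without overlap (log2 fold change 3.53 ± 0.50, adjusted *p* = 0.00113). BAMBI, a decoy receptor and itself a known BMP target, rose (1.54 ± 0.44, adjusted *p* = 0.0203), as did NBL1 (0.89 ± 0.20). CHRD (-1.93 ± 0.49) and SMURF1, a ubiquitin ligase of BMP SMADs (-1.25 ± 0.22), fell. CHRD did not pass by quantile normalization (adjusted *p* = 0.0616).

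The treated H82 libraries split in the same way over ID1 and several of these genes. SMAD6 was 5.93 TPM in n1, 27.3 TPM in n2 and 23.5 TPM in n3, against 10.4 to 12.5 TPM untreated. SMAD7 was 2.01, 9.06 and 6.36 TPM in the 3 treated libraries, against 4.10 to 4.88 TPM untreated. For both, as for ID1, n1 lay below and n2 and n3 above the untreated range, and neither passed the test (adjusted *p* = 0.472 for SMAD6 and 0.755 for SMAD7). ATOH8 was 6.92, 39.9 and 44.5 TPM in n1 to n3, against 2.02 to 2.53 TPM untreated. Between n2 and n1 the ratio was 7.01 for ID1, 5.76 for ATOH8, 4.602 for SMAD6, 4.52 for SMAD7, 3.95 for BAMBI, 3.83 for NOG and 2.73 for ID3. For n3 against n1 it was 6.14, 6.42, 3.96, 3.17, 2.53, 3.55 and 2.31 in the same order, and for the E proteins TCF3, TCF4 and TCF12 it was 1.76, 2.02 and 1.80. TCF4 (2.77) and ID2 (2.37) were also higher in n2 than in n1, by about as much as ID3. ID4 did not share the split, with a ratio of 3.18 for n2 against n1 and 0.862 for n3 against n1. These genes were chosen after their values were seen, and n1 differs from n2 and n3 across the transcriptome too.

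**Figure D4:**
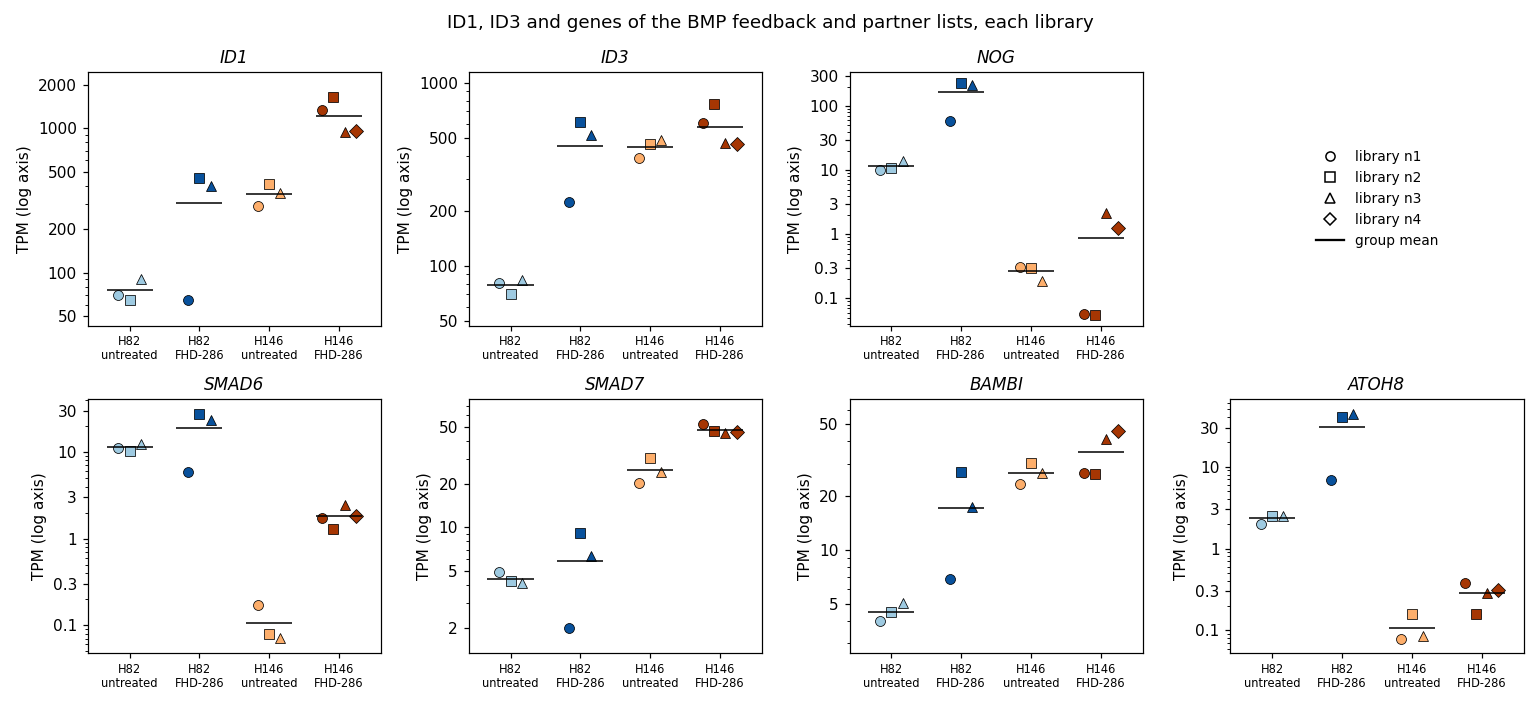
TPM on a log axis of ID1, ID3, NOG, SMAD6, SMAD7, BAMBI and ATOH8 in each library, by cell line and treatment, with marker shapes for the library number and a line for the group mean. In treated H82 the circle of n1 lies below n2 and n3 in each panel, with ID1 at 64.5, 453 and 396 TPM.

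Markers listed for epithelial, fibroblast, lymphoid and myeloid, and endothelial cells were summed as well, and some moved in the same libraries. The epithelial ones were high in untreated H146 itself, so they do not mark another cell type here. The sum over 5 epithelial markers went from 1.57 to 3.61 TPM in untreated H82 to 9.17 to 114 TPM in treated H82, with the highest sum in n2, where EPCAM was 32.8 TPM and KRT19 50.2 TPM while CDH1 was 0.404 TPM. In H146 that sum fell from 2234 to 2404 TPM untreated to 575 to 647 TPM treated, and KRT19 fell from 929 to 58.4 TPM (log2 fold change -3.97 ± 0.11, adjusted *p* = 1.14e-06). Sums over 5 fibroblast markers were 1.19 to 1.45 TPM in untreated and 4.84 to 30.9 TPM in treated H82, and 6.78 to 8.75 and 16.8 to 31.6 TPM in H146. Sums over 5 lymphoid and myeloid markers stayed between 2.34 and 20.2 TPM, with CD3E at 0 in every H82 library, and those over 4 endothelial markers between 0.0843 and 2.65 TPM. The part of these markers in the ID changes was not tested.

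The genes with the pattern closest to each member were ranked by the root mean square difference of centered log2(TPM + 1) over the 13 libraries, among 15672 genes. The closest to TCF3 were KPNA6 and FAF2 (0.139 each), to TCF4 KIAA1147 (0.235) and ABLIM1 (0.236), and to TCF12 PPP1CB (0.178) and PPFIA2 (0.189). ID3 was closest to SDC2 (0.326), which had means of 21.8 and 102 TPM in untreated and treated H82 and 97.3 and 168 TPM in H146, and then to HIST1H4I (0.336). ID1 had no gene as close, with FGFBP3 at 0.523 and SIX4 at 0.622. ID2 was closest to CCP110 (0.272) and CABYR (0.302). ID4 was closest to RPS2P5 (0.367), a ribosomal pseudogene whose reads may belong to near-identical copies, and to CLDN7 (0.418), with means of 1.18 TPM in untreated H82 and 146.01 TPM in untreated H146.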

How the data were processed

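RNA-seq of H82 and H146 cells was analysed from the TPM values that the authors deposited, 1 table per line, with 13 libraries and 56831 genes by symbol. Per the labels and the methods, reads were trimmed with Trim Galore 0.4.4 and mapped to hg38 with STAR and the GENCODE annotation, and groups were compared with DESeq2. How gene length was taken is not given in the sources used here, and TPM keep no depth, so no interval from counts was drawn. Dates stand in place of 29 symbols, 4 of them duplicated, and none of these is a gene reported here.

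Each line was fitted on every gene that reached 1 TPM in 3 or more of its libraries, in R 4.3.3 with limma 3.58.1 (statmod 1.5.0) on log2(TPM + 1), with eBayes and a mean-variance trend. Adding 1 understates changes of low genes. Two-sided *p* values were adjusted by Benjamini-Hochberg across the whole table tested, and 0.05 was the threshold. Differences between lines came from 1 fit over all 13 libraries, on genes that reached 1 TPM in 3 or more libraries of either line. Means and SD are of TPM. The scripts were tested on simulated data. Python 3.11.15 prepared tables and plots (pandas 2.3.3, NumPy 2.4.6, matplotlib 3.10.9).

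The members and gene lists were chosen with earlier results of these data known. The genes named are the 7 members, up to 3 of the largest rises and falls past the threshold per list and line, and the 2 genes nearest to each member. Others are named with values as examples chosen after they were seen. Alternatives were a pseudocount of 0.1, no filter, a mean above 2 TPM, median of ratios, quantile normalization, no trend, library weights, the replicate block and each library left out. Coordinates are from GENCODE release 44. Protein sequences, and values of some genes of the study and the lists, are not reported here.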

Additional observations from a re-analysis of the deposited data

Results flagged for a closer look

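The response to FHD-286 differed between H146 and H82, by the test of the difference itself, for 4 of the 7 genes. Of all 23676 genes tested, 60.2% did so. The difference, H146 response minus H82 response in log2(TPM + 1), was 1.31 for TCF3, 1.19 for TCF4, -0.89 for TCF12 and -2.05 for ID3. Its median over all genes tested was 0.73. TCF3 and TCF4 were higher in all 4 treated libraries of H146 than in its untreated ones, TCF12 was lower in all 4, and ID3 was higher in all 3 treated libraries of H82. With the median of ratios the differences for TCF3 (0.50, adjusted *p* = 0.0961 by limma) and TCF4 (0.45, adjusted *p* = 0.243) did not pass. Dixon's criterion marked no member's value in treated H146, and it was not applied to the groups of 3 libraries.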

How the results depend on the processing

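Over 35 log2 differences of single members (7 genes, 5 comparisons) and 644 recomputed values, 594 kept their direction and, where tested, their side of the threshold. Of the rest, 10 lost the call, 19 gained one and 21 changed sign, and 18 of the 35 kept both under every alternative run. The log2 ratio of mean TPM has no test, so only its direction was compared. The count of members lower in H82 was 1 by quantile normalization and 0 to 1 with 1 library left out. The count higher in H82 was 2 by the median of ratios, by quantile normalization, with library weights and with the replicate block, and 1 to 2 with 1 library left out. The count lower in H146 was 1 to 3 with 1 library left out, 1 being without untreated n2. The count with a higher response in H146 than in H82 was 0 by the median of ratios and 1 by quantile normalization. The count lower in treated H146 than in treated H82 was 2 by the median of ratios and by quantile normalization, 1 with library weights and 0 to 2 with 1 library left out. In H82, the median of ratios turned TCF3 to 0.12, TCF4 to 0.15 and TCF12 to 0.36, quantile normalization turned TCF4 to 0.53, and library weights turned TCF4 to 0.083 and TCF12 to 0.13. With 1 library left out, the H82 change ranged from -0.54 to 0.073 for TCF4, from -0.29 to 0.12 for TCF12 and from -0.17 to 0.68 for ID4. The difference between the responses turned to -0.65 for ID1 by the median of ratios and to -0.71 with library weights, and ranged from -0.73 to 0.66 for ID1 and from -0.37 to 0.24 for ID2 with 1 library left out. Between the treated lines, ID3 turned to -0.12 by the median of ratios and -0.11 with library weights, and ranged from -0.00022 to 0.72 with 1 library left out, and TCF3 ranged from -0.39 to 0.014. By the median of ratios the summed ID level was 190 (189.99) in untreated H82 and 2056 in untreated H146, and the summed E protein level was 218 in untreated H82 and 211 (210.6) in treated H146, and the ratio of the sums cannot move under a factor common to a library. For the lists, quantile normalization gave 7 partners higher in H82, 0 ligands lower in H82, 1 SMAD gene higher in H82 and 1 inhibitor lower in H82. The median of ratios gave 0 SMAD genes lower in H82 and 2 lower in H146. Both scalings gave 5 partners lower and 1 higher in H146, 2 receptors higher in H82 and 1 SMAD gene higher in H146. The cause of these changes was not tested. No pairing by replicate number was seen (correlations of the deviations of same-numbered libraries of -0.11 to 0.03). With so few libraries this does not settle whether same-numbered ones were handled together. With the replicate number as a block, 20 of 21 values kept their call, and ID1 in H82, at the same 1.59, passed with an adjusted *p* of 0.0422 by limma. The block was not run for the differences between lines at 1 treatment, where the numbers are nested in the lines. The reads behind each TPM are unknown, so no counting error is given for low values.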
